A study of Homo sapiens with 28 samples.

Results

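Messenger RNA of 10 genes of the lipid droplet and of triacylglycerol metabolism was followed across 7 treatments of HT-1080 cells, a line established from a human fibrosarcoma. The genes were taken by symbol: PLIN2 and PLIN3 coat the droplet, HILPDA, ABHD5 and PNPLA2 set the rate of lipolysis, and GPAM, AGPAT2, LPIN1, DGAT1 and DGAT2 build triacylglycerol. All 10 were among the 60286 genes of the count table, and all 10 were among the 16325 genes with enough counts to be tested. PLIN2 reached the count minimum in 4 of 28 libraries, 2 with CLA18:2 and 2 with RSL3 and CLA18:2. Its test was therefore possible only because of the groups in which it was highest, and its values are given below as a description. The other 9 genes reached the minimum in all 28 libraries.

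The cells were treated overnight, with 4 libraries per group. The control group received the vehicle dimethyl sulfoxide (DMSO) alone. One group received 10 nM RSL3, an inhibitor of the lipid peroxidase GPX4 that is used to trigger ferroptosis, a form of cell death driven by lipid peroxidation. Further groups received 80 µM linoleic acid (LA), 80 µM of its conjugated form CLA18:2, 10 nM RSL3 with 80 µM LA, or 10 nM RSL3 with 80 µM CLA18:2. The last group received 5 µM CLA18:3, a conjugated acid with 1 more unsaturated bond than CLA18:2. LA and CLA18:2 have the same chain length and number of unsaturated bonds and differ in where those bonds lie, next to each other along the chain in the conjugated acid and set apart by a methylene group in LA. The labels do not name the isomers within CLA18:2 or CLA18:3. All groups are the same cell line with no genetic change stated, and the submitters call the replicates independent without saying more, so p-values measure the spread between these libraries. The samples treated with LA alone or CLA18:2 alone stand later in the series than the others, and no batch is given.

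Cells given more fatty acid than they burn or put into membranes esterify it into triacylglycerol, which is stored in lipid droplets that bud from the endoplasmic reticulum. The pathway joins acyl chains to glycerol 3-phosphate one after another: GPAM adds the first at the mitochondrial surface, AGPAT2 the next, LPIN1 removes the phosphate, and DGAT1 or DGAT2 adds the last. Droplets are covered by perilipins, of which PLIN2 is in most cells made in step with stored lipid and destroyed without it, and PLIN3 moves onto new droplets from the cytosol. PNPLA2 (adipose triglyceride lipase) takes off the first chain, ABHD5 (CGI-58) activates it, and HILPDA, a target of the hypoxia factor HIF1, inhibits it. Fatty acids released from or kept in droplets change how much polyunsaturated lipid is in membranes, the substrate of peroxidation in ferroptosis.

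RefSeq promoter entries (build GRCh38.p14) were used for 7 of the 10 genes: PLIN2, PLIN3, ABHD5, PNPLA2, GPAM, AGPAT2 and LPIN1. ABHD5 and LPIN1 had 3 start sites each. Promoters of the remaining genes were not searched, so nothing is said of their motifs. The 250 bases before each start site were searched on both strands for 5 short motifs: ACGTG, the core bound by HIF and by other basic helix-loop-helix factors, TGACNNNGC, the antioxidant response core, AGGTCA, the core of PPAR and RXR sites, TCACNCCAC, a sterol response element bound by SREBP, and TGATGNAAN, the ATF4 composite core. These motifs occurred in 18.5%, 10.9%, 12.1%, 0.883% and 3.13% of 35116 promoters of the same length. Matches were found for PLIN2, PLIN3, PNPLA2 and LPIN1, and their sequences are shown because these genes carry several of the comparisons below and represent the coat, the lipase and the synthesis steps. Each line gives the gene's sense strand 5′ to 3′, ending at the base before the start site, with the motif matches in capitals.
PLIN2 (chr9:19127493-19127742, minus strand): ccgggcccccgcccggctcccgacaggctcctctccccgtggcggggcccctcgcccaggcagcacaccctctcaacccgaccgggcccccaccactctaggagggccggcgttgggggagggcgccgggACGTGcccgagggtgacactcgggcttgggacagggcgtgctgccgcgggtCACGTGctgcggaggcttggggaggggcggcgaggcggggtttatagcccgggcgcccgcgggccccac
PLIN3 (chr19:4867668-4867917, minus strand): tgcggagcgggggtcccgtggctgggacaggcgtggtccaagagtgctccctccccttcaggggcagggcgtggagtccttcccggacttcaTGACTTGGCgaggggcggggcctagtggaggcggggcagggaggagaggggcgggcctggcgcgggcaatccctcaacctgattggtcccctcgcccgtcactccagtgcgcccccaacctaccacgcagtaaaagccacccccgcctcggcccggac
PNPLA2 (chr11:818664-818913, plus strand): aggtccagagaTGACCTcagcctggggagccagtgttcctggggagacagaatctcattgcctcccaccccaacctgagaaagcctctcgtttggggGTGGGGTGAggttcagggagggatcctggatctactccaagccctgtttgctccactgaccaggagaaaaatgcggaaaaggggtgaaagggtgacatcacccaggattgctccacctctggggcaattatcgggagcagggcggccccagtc
LPIN1, the start site listed second (chr2:11677294-11677543, plus strand): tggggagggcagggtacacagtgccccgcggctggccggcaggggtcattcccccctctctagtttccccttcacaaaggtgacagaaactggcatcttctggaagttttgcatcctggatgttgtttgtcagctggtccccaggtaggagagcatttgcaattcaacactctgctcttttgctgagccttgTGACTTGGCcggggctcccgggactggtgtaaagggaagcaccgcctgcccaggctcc
In PLIN2 the capitals are ACGTG 120 bases before the start and the palindrome CACGTG 69 bases before it, which holds overlapping matches to ACGTG on both strands. PLIN3 and LPIN1 both carry TGACTTGGC, a match to the antioxidant response core, 158 and 58 bases before their starts. PNPLA2 has TGACCT, the reverse of the PPAR and RXR core, 239 bases before its start and GTGGGGTGA, the reverse of the sterol response element, 153 bases before it. None of the 5 motifs was found in the windows of ABHD5, GPAM and AGPAT2 or before the other LPIN1 start sites. A match describes letters only, and no binding was measured.

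Library totals were 16226270 to 24286824 counts, and between 18812 and 23636 genes had a count. All 10 mesenchymal markers fixed for the line were at a mean of 1 CPM (count per 1000000 counts of the library) or more, with sums of 12100 to 14870 CPM per library and the lowest, S100A4, at 1.01 CPM. Of 10 adipocyte markers only FABP4 reached 1 CPM, at 4.203, the sum per library was 3.15 to 5.74 CPM in 6 groups and 5.01 to 9.49 CPM with CLA18:3, and ADIPOQ and PCK1 had no count in any library. Of 10 markers each, the hepatocyte list had none at 1 CPM, the epithelial list had KRT14 and CLDN4, and the blood list had CSF1R alone, at 13.2 CPM. The blood sum was 8.41 to 10.2 CPM with DMSO, 15.2 to 17.4 with LA, 14.3 to 16.2 with CLA18:2, 10.8 to 16.02 with RSL3+CLA18:2 and 17.1 to 21.1 with RSL3+LA, and its part in the results was not tested. Mitochondrially encoded mRNA held 0.263 to 1.93% of counts. It was under 0.6% in 8 libraries: replicates 1, 2 and 4 of RSL3+CLA18:2, replicates 1 and 3 of CLA18:2, and 1 library each of RSL3, LA (both replicate 4) and CLA18:3 (replicate 1). Values without these 8 are given where they end a call for one of the 10 genes. The spread between replicates, as the biological coefficient of variation over all genes, was 4.52% with DMSO, 15.1% with RSL3+CLA18:2 and 19.9% with CLA18:3.

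Per kilobase of exon, the levels of the genes spanned a wide range. PLIN3 averaged 42.8 CPM per kilobase over the 28 libraries, PNPLA2 32.9 and AGPAT2 23.5. DGAT1 (6.11), ABHD5 (5.73), LPIN1 (4.002), HILPDA (3.55) and GPAM (3.33) formed a middle range, DGAT2 stood at 0.526 and PLIN2 at 0.0415 CPM per kilobase. CPM from here on uses TMM-scaled library sizes, and these levels use exon lengths of GENCODE release 29, which may differ from the annotation the authors counted on. The panels of levels by library show how narrow most genes' ranges were: the ratio of the highest to the lowest group mean was 1.11 for PNPLA2, 1.23 for PLIN3, 1.23 for AGPAT2 and 1.248 for DGAT1, and reached 1.74 for GPAM and 1.69 for DGAT2.

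**Figure D1:**
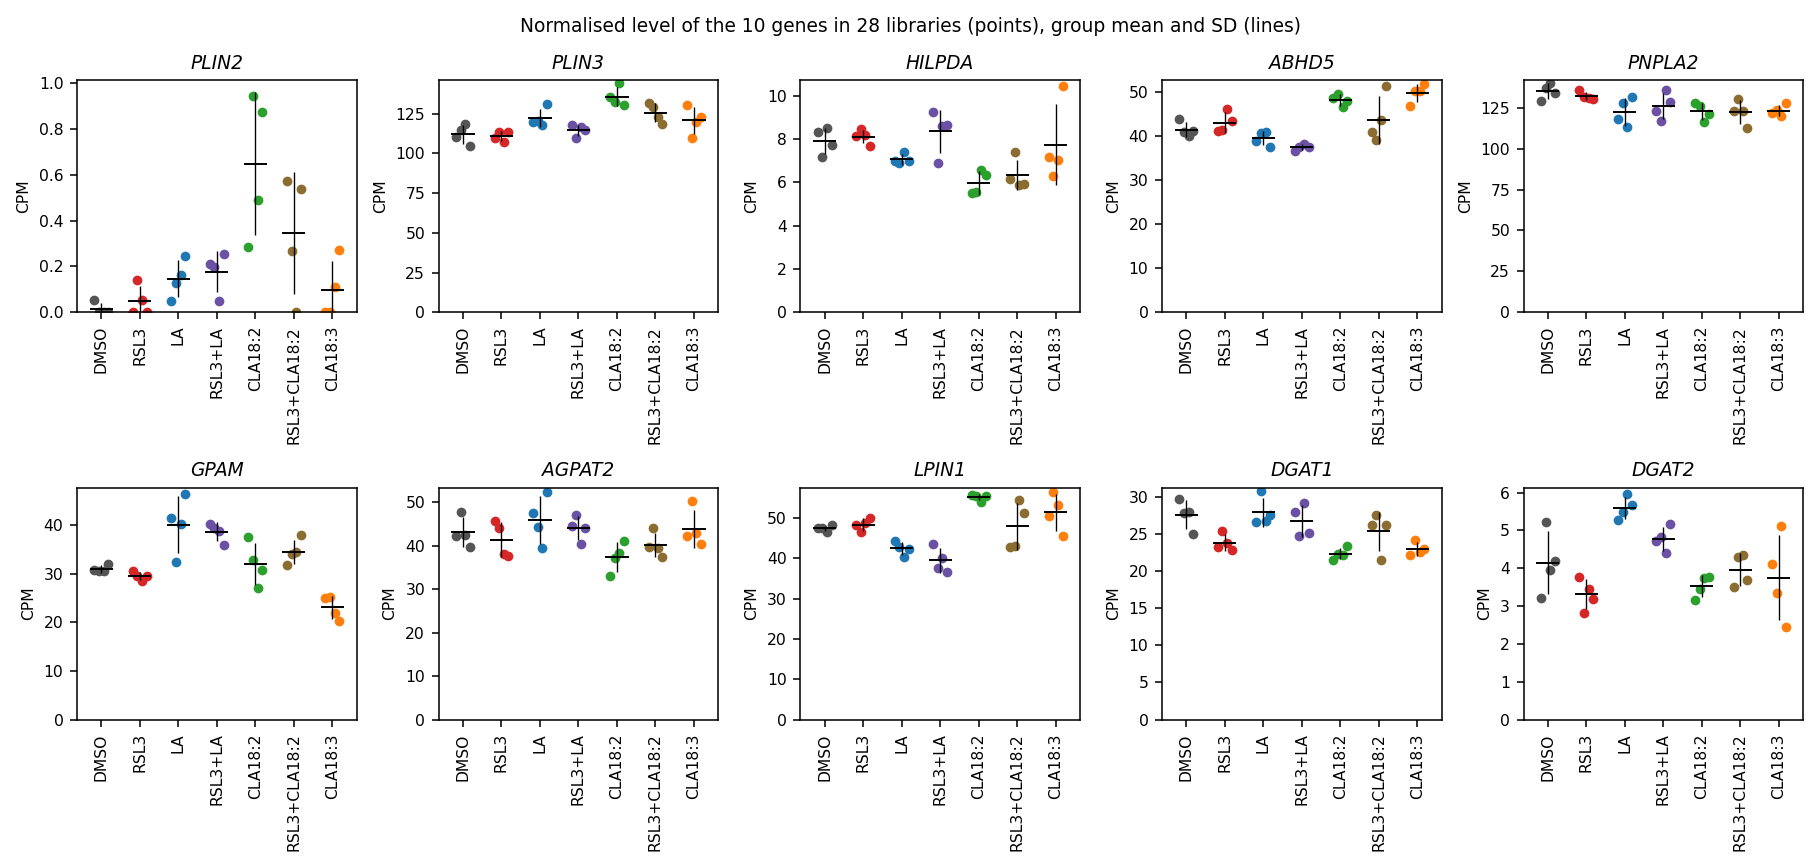
Normalised level (CPM, linear axis from 0) of each of the 10 genes in 28 libraries; points are libraries, horizontal lines group means and vertical lines the SD (n = 4). PLIN2 stayed below 1 CPM in every library, at most 0.946, and GPAM was highest with LA and lowest with CLA18:3.

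Against DMSO, more of these genes passed the test with CLA18:2 or CLA18:3 alone than with LA or RSL3 alone, as over all genes. Leaving PLIN2 aside, as many passed with RSL3+CLA18:2 as with RSL3+LA, while over all genes more passed with RSL3+CLA18:2. Of the 9 genes other than PLIN2, 3 rose with CLA18:2 (PLIN3, ABHD5 and LPIN1) and 3 fell (HILPDA, PNPLA2 and DGAT1), beside 20.1% of all genes tested that rose and 18.6% that fell. With CLA18:3, ABHD5 rose and PNPLA2, GPAM and DGAT1 fell, beside 19.1% and 16.7% of all genes. With RSL3+CLA18:2, PLIN3 rose and PNPLA2 fell, beside 18.6% and 16.6%. LA raised GPAM alone and lowered none, beside 4.91% and 3.41%. RSL3+LA raised GPAM and lowered LPIN1, beside 5.43% and 4.81%. RSL3 alone changed 0 of 10 by edgeR and 0 by DESeq2, beside 0.178% of all genes that rose and 0.0245% that fell by edgeR. At an unadjusted edgeR p under 0.05 was 1 gene (DGAT1), beside 989 of all 16325 genes tested. These 6 comparisons share the DMSO libraries. In bulk RNA, fewer cells that express a gene and less of its RNA per cell cannot be told apart. The median log2 fold change of the 9 genes was 0.02 with LA, -0.14 with CLA18:2 and -0.03 with CLA18:3, beside 0.002, -0.02 and 0.003 over all genes tested.

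**Figure D2:**
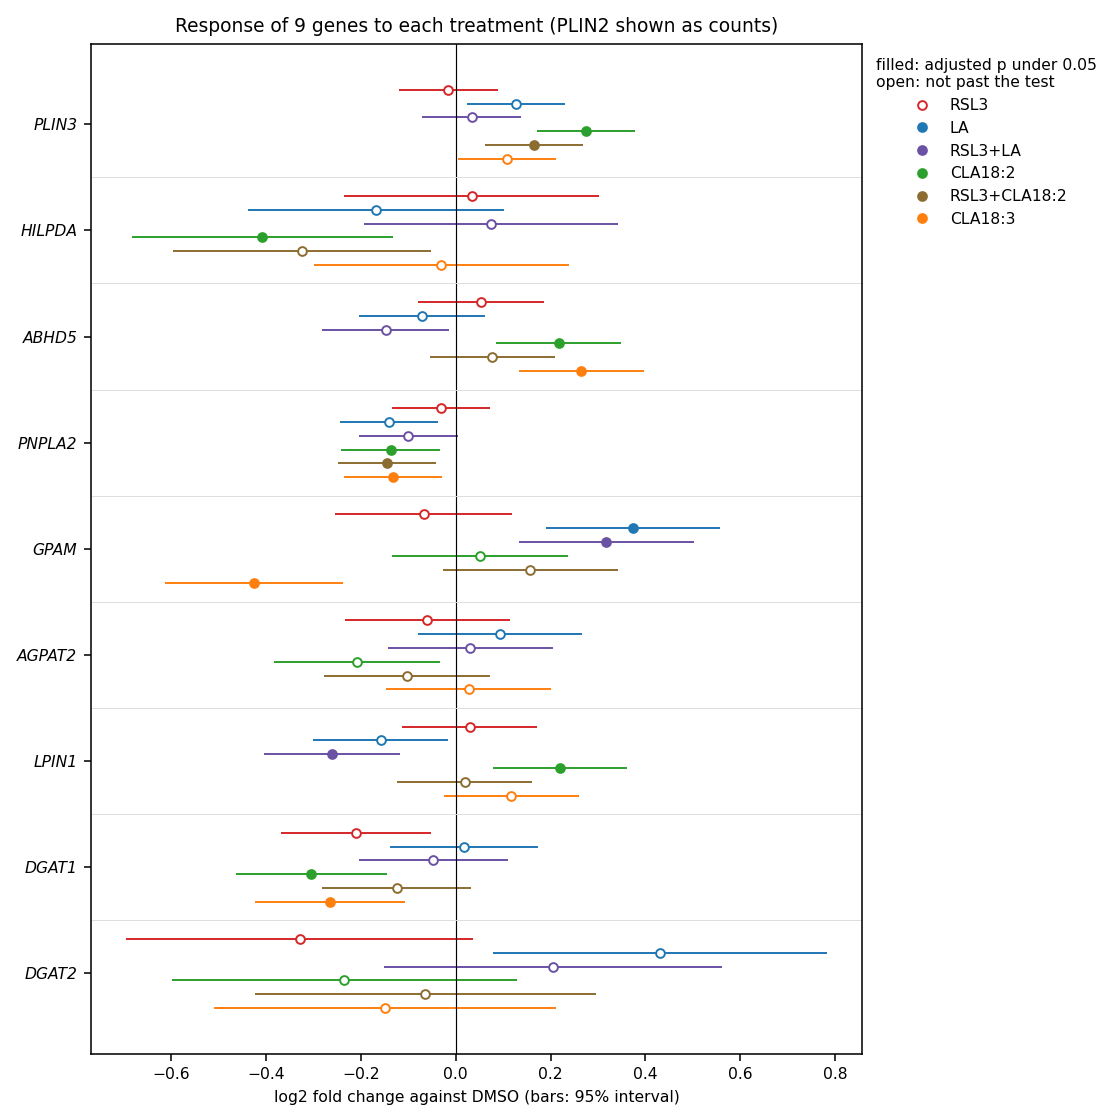
Log2 fold change of 9 genes against DMSO for 6 treatments, with 95% intervals from the edgeR fit (4 libraries per group); filled points passed an adjusted p of 0.05. GPAM moved in opposite directions with LA and CLA18:3, and LPIN1 with CLA18:2 and RSL3+LA; PLIN2 is plotted separately as counts.

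PLIN2, the perilipin most often used as a droplet marker, was close to undetected in every group. The 4 DMSO libraries held 1, 0, 0 and 0 PLIN2 counts, and the RSL3 libraries 0, 3, 1 and 0. LA libraries held 1, 3, 3 and 6 counts, RSL3+LA 4, 4, 1 and 5, CLA18:2 6, 20, 8 and 16, RSL3+CLA18:2 10, 5, 0 and 12, and CLA18:3 0, 0, 2 and 6. Every CLA18:2 library lay above every DMSO, RSL3 and CLA18:3 library except for 1 CLA18:3 library that tied the lowest at 6 counts, LA replicate 4 also tied it, and the LA libraries overlapped DMSO. Summed over 4 libraries, CLA18:2 had 50 counts in 76335580 and DMSO 1 count in 80897246, a normalised ratio of 53.4 with a 95% exact counting interval of 9.15 to 2150. LA had 13 counts, a ratio to DMSO of 12.4 (1.86 to 527), and CLA18:2 exceeded LA 4.31 times (2.30 to 8.64). RSL3+CLA18:2 had 27 counts, a ratio to DMSO of 27.6 (4.55 to 1131) and to RSL3 of 6.38 (2.22 to 25.1). CLA18:3 had 8 counts and a ratio of 8.04 (1.08 to 357), RSL3+LA 14 counts and 14.6 (2.22 to 616), and RSL3 4 counts and 4.33 (0.428 to 213). The intervals cover counting error only and not the spread between libraries, which for RSL3+CLA18:2 ran from 0 to 0.576 CPM. A count of 0, as in its replicate 3, allows up to 0.137 CPM at that depth (3 counts).

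No test of PLIN2 is given, because it entered the fit only through the libraries in which it was high. Without the 8 libraries low in mitochondrial mRNA, RSL3+CLA18:2 keeps only replicate 3, which had no PLIN2 count. No other GENCODE 29 gene shares exon bases with PLIN2 (chromosome 9, 19108375 to 19149290, minus strand). Of the 60286 gene symbols of the count table, 36783 are in that release, so overlaps in the annotation used for counting are not known. Whether the way reads were assigned to genes lowered the PLIN2 counts was not tested.

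**Figure D3:**
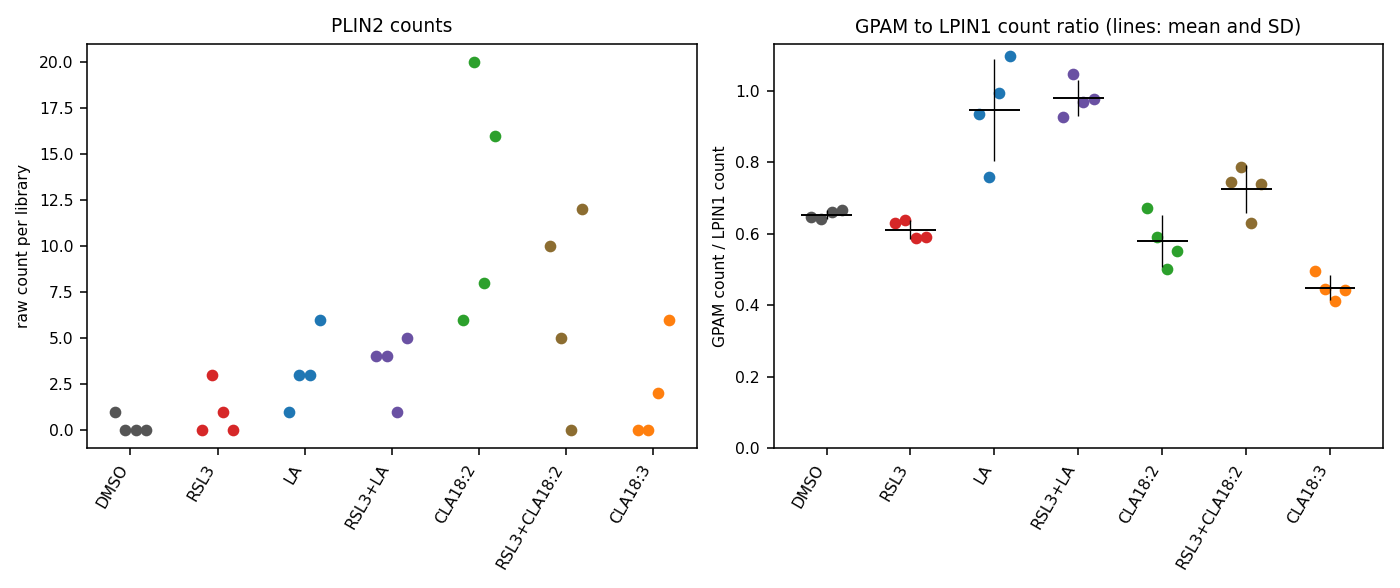
Left, raw PLIN2 counts per library in the 7 groups; right, the ratio of GPAM to LPIN1 counts within each library, with group mean and SD (n = 4 libraries). The CLA18:2 libraries hold 6 to 20 PLIN2 counts against 0 or 1 with DMSO, and the ratio is highest in the groups with LA and lowest with CLA18:3.

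PLIN3, the exchangeable perilipin of nascent droplets, was abundant and rose by a small amount with CLA18:2. It stood at 111, 115, 119 and 104 CPM with DMSO and at 135, 133, 144 and 131 CPM with CLA18:2, with no overlap. The rise was 0.28 ± 0.05 on the log2 scale (SE), or 1.21-fold (edgeR adjusted p = 3.44e-05), and every alternative tried kept it. With RSL3+CLA18:2 the libraries were at 132, 129, 123 and 118 CPM, just overlapping DMSO at 118 to 119, a rise of 0.16 ± 0.05 (adjusted p = 0.0108). That call ended without DMSO replicate 4 (0.0585), with no filter on low counts (0.0536) and without the 8 libraries low in mitochondrial mRNA (0.146). LA gave 120, 120, 118 and 131 CPM, a difference of 0.13 ± 0.05 that did not pass the test (adjusted p = 0.144), and CLA18:3 gave 110 to 131 CPM (0.11 ± 0.05, adjusted p = 0.0960). In order of group means PLIN3 ran from CLA18:2 through RSL3+CLA18:2, LA, CLA18:3, RSL3+LA and DMSO to RSL3, and all neighbours in that order overlapped. PLIN3 lies on chromosome 19 (4838341 to 4867768, minus strand), and 17.8% of its exon bases are shared with an antisense gene, AC027319.1; whether counting used strand is not stated.

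Of the genes of lipolysis, the activator and the lipase moved in opposite directions with both conjugated acids. ABHD5 stood at 43.7, 41.0, 39.9 and 41.1 CPM with DMSO, at 48.6, 49.5, 46.5 and 47.9 with CLA18:2, and at 46.9, 50.1, 50.3 and 51.8 with CLA18:3. Both conjugated groups lay wholly above DMSO. The rise was 0.22 ± 0.07 with CLA18:2 (edgeR adjusted p = 0.00720) and 0.27 ± 0.06 with CLA18:3 (adjusted p = 0.00142), 1.162-fold and 1.202-fold, and every alternative kept both. LA was at 37.4 to 40.8 CPM (-0.07 ± 0.07, adjusted p = 0.665). With RSL3+CLA18:2 the libraries spread from 39.0 to 51.2 CPM and the difference from DMSO was 0.08 ± 0.07 (adjusted p = 0.390). ABHD5 lies on chromosome 3 (43690108 to 43734371) and shares 2.25% of its exon bases with ANO10 on the other strand.

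PNPLA2, the lipase itself, had DMSO libraries at 129, 137, 140.5 and 134 CPM, CLA18:2 libraries at 128, 126, 116 and 121, and CLA18:3 libraries at 122, 124, 120 and 128. Both treated groups lay just below DMSO, by 1 CPM at the nearest libraries. The falls were small, -0.14 ± 0.05 with CLA18:2 (edgeR adjusted p = 0.0304), -0.13 ± 0.05 with CLA18:3 (0.0389) and -0.15 ± 0.05 with RSL3+CLA18:2 (0.0242), to 0.909, 0.912 and 0.904 times the DMSO level. LA gave almost the same difference without passing the test, -0.14 ± 0.05 (adjusted p = 0.0897), and passed it without LA replicate 4 (0.0419), so the acids are not shown to differ here: CLA18:2 minus LA was 0.00 with a 95% interval of -0.10 to 0.11. The call with CLA18:2 ended without DMSO replicate 2 or 3 or CLA18:2 replicate 2, 3 or 4 (adjusted p up to 0.171), that with CLA18:3 without DMSO replicate 2, 3 or 4 or CLA18:3 replicate 1, 2 or 3 (up to 0.118), and that with RSL3+CLA18:2 without DMSO replicate 2 or 3 or its own replicate 4 (up to 0.116). Without the 8 libraries low in mitochondrial mRNA the calls with CLA18:2 and RSL3+CLA18:2 ended too, at adjusted p of 0.137 and 0.201. An antisense gene, AP006621.1, shares 10.4% of PNPLA2's exon bases (chromosome 11, 818902 to 825573).

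Within a library, the count ratio of ABHD5 to PNPLA2 needs no scaling between libraries. It was 0.307 ± 0.023 (SD, n = 4) with DMSO, 0.392 ± 0.009 with CLA18:2 and 0.404 ± 0.014 with CLA18:3, and neither treated group overlapped DMSO. LA was at 0.323 ± 0.031, RSL3 at 0.325 ± 0.022 and RSL3+LA at 0.297 ± 0.016, all overlapping DMSO. RSL3+CLA18:2 ranged from 0.299 to 0.454. The pair was chosen for its known partnership after the values had been seen, so no test is given.

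HILPDA, the inhibitor of PNPLA2, was lowest in the groups with CLA18:2. DMSO libraries were at 8.31, 7.17, 8.51 and 7.70 CPM and CLA18:2 libraries at 5.49, 5.53, 6.56 and 6.36, from 107 to 198 counts each and with no overlap. The fall was -0.41 ± 0.14 (edgeR adjusted p = 0.0152), to 0.754 times the DMSO level. It ended without CLA18:2 replicate 1 or 2 (adjusted p up to 0.0616), with no filter on low counts (0.0834) and without the 8 libraries low in mitochondrial mRNA (0.0728). RSL3+CLA18:2 stood at 5.86 to 7.38 CPM (-0.32 ± 0.13, adjusted p = 0.0579), and passed without its replicate 2 (0.0277). CLA18:3 had 3 libraries at 6.30 to 7.19 CPM and replicate 4 at 10.5, with no difference called (-0.03 ± 0.13, adjusted p = 0.891). HILPDA lies on chromosome 7 (128455849 to 128458418), and 2 processed transcripts on its strand share 8.99% and 8.45% of its exon bases.

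GPAM, the mitochondrial acyltransferase that starts the pathway, rose with LA and fell with CLA18:3. It stood at 30.7, 30.4, 30.6 and 32.1 CPM with DMSO and at 41.5, 32.4, 40.1 and 46.4 with LA, above DMSO in 4 of 4 libraries with replicate 2 only just so. RSL3+LA gave 40.3, 39.4, 38.8 and 35.8 CPM, and CLA18:3 gave 25.0, 25.2, 21.8 and 20.2 CPM, all below DMSO. The rise with LA was 0.37 ± 0.09, 1.29-fold (edgeR adjusted p = 0.00525), and every alternative kept it, with adjusted p between 0.000286 and 0.0492. RSL3+LA gave 0.32 ± 0.09 (adjusted p = 0.0175), which ended without DMSO replicate 2 or RSL3+LA replicate 1 (up to 0.0567). Against RSL3, RSL3+LA was higher by 0.39 ± 0.09 (adjusted p = 0.00411), a call that every alternative kept. The fall with CLA18:3 was -0.43 ± 0.09, to 0.744 times DMSO (adjusted p = 0.000416), again kept by every alternative. CLA18:2 spread from 27.1 to 37.5 CPM around DMSO and was not called (0.05 ± 0.09, adjusted p = 0.714). From highest to lowest mean the order was LA, RSL3+LA, RSL3+CLA18:2, CLA18:2, DMSO, RSL3 and CLA18:3, and every pair of neighbours overlapped except RSL3 and CLA18:3. No GENCODE 29 gene shares exon bases with GPAM (chromosome 10, 112149864 to 112215377, minus strand).

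LPIN1, a phosphatidate phosphatase that also acts in the nucleus as a partner of transcription factors, was high with CLA18:2 and low with LA. DMSO libraries were at 47.4, 47.6, 46.4 and 48.2 CPM, CLA18:2 at 55.7, 55.4, 54.1 and 55.5, LA at 44.4, 42.8, 40.4 and 42.3, and RSL3+LA at 43.6, 37.7, 40.1 and 36.7. Neither LA group overlapped DMSO and all 4 CLA18:2 libraries lay above it. The rise with CLA18:2 was 0.22 ± 0.07, 1.16-fold (edgeR adjusted p = 0.0110), kept by every alternative. The difference with LA alone, -0.16 ± 0.07, did not pass (adjusted p = 0.205), except when only the LA and DMSO libraries were fitted (0.0352). That with RSL3+LA did, at -0.26 ± 0.07 against DMSO (adjusted p = 0.0115) and -0.29 ± 0.07 against RSL3 (0.00523). The call against DMSO ended without RSL3+LA replicate 4 (0.0532). CLA18:3 ranged from 45.6 to 56.5 CPM (0.12 ± 0.07, adjusted p = 0.200). RSL3+CLA18:2 ranged from 42.7 to 54.5 CPM and did not differ from DMSO past the test (0.02 ± 0.07, adjusted p = 0.872). LPIN1 lies on chromosome 2 (11677595 to 11827409).

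The count ratio of GPAM to LPIN1 within a library was 0.654 ± 0.012 (SD, n = 4) with DMSO. It was 0.946 ± 0.142 with LA and 0.979 ± 0.050 with RSL3+LA, every library above the highest DMSO library at 0.666. It was 0.449 ± 0.035 with CLA18:3, every library below the lowest at 0.640, and 0.611 ± 0.026 with RSL3, also below. CLA18:2 (0.579 ± 0.072) and RSL3+CLA18:2 (0.725 ± 0.066) overlapped DMSO. This pair of genes was picked after the values were seen.

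The final step is made by DGAT1 and DGAT2, enzymes of unrelated families that both turn diacylglycerol into triacylglycerol. DGAT1 stood at 29.6, 27.8, 27.98 and 24.9 CPM with DMSO, at 21.5, 22.4, 22.1 and 23.4 with CLA18:2, and at 22.2, 24.2, 22.5 and 23.0 with CLA18:3. Neither conjugated group overlapped DMSO. The fall was -0.30 ± 0.08 with CLA18:2 (edgeR adjusted p = 0.00182) and -0.27 ± 0.08 with CLA18:3 (0.00710), to 0.810 and 0.832 times DMSO, and every alternative kept both. LA was at 26.6 to 30.8 CPM (0.02 ± 0.08, adjusted p = 0.952). RSL3+CLA18:2 was at 21.5 to 27.5 CPM, overlapping DMSO, and was not called (-0.12 ± 0.08, adjusted p = 0.224). Without the 8 libraries low in mitochondrial mRNA its difference was -0.35, from 1 RSL3+CLA18:2 library (replicate 3, at 21.5 CPM). RSL3 was at 22.8 to 25.4 CPM, overlapping DMSO (-0.21 ± 0.08, unadjusted p = 0.0105, adjusted p = 0.583). AC233992.1 on the same strand and HSF1 on the other share 10.7% and 3.36% of DGAT1's exon bases (chromosome 8, 144314584 to 144326910).

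DGAT2 was low, with 54 to 139 counts per library. DMSO libraries were at 3.21, 5.23, 3.95 and 4.18 CPM, LA at 5.28, 5.49, 5.96 and 5.66, and CLA18:2 at 3.15, 3.45, 3.74 and 3.78. LA lay just above DMSO in all 4 libraries, but the difference did not pass (0.43 ± 0.17, adjusted p = 0.147), and CLA18:2 overlapped DMSO (-0.24 ± 0.18, adjusted p = 0.329). RSL3+LA against RSL3 was 0.53 ± 0.18 (adjusted p = 0.0548) with no overlap, at 4.40 to 5.17 against 2.83 to 3.76 CPM, and passed by DESeq2 (0.0352) and when only those groups were fitted (0.0398). DGAT2 lies on chromosome 11 (75759512 to 75801535). AGPAT2, which makes phosphatidic acid, was at 39.7 to 47.8 CPM with DMSO and 32.9 to 41.1 with CLA18:2, a difference of -0.21 ± 0.09 just short of the threshold (adjusted p = 0.0543) that passed by DESeq2 (0.0492), with the replicate block (0.0436), with no filter (0.0447) and with only those groups fitted (0.0343). With 1 library left out its edgeR adjusted p ran from 0.0271 to 0.265, and the highest over all alternatives was 0.340. AGPAT2 lies on chromosome 9 (136673143 to 136687423).

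LA and CLA18:2 were given at the same dose and time, so their difference compares the conjugated with the unconjugated acid. Of the 9 genes other than PLIN2, CLA18:2 was higher than LA for 3 (PLIN3, ABHD5 and LPIN1) and lower for 4 (GPAM, AGPAT2, DGAT1 and DGAT2), beside 15.6% of all genes higher and 14.6% lower. The 4 lower genes encode acyltransferases, while on the wider list described below the acyltransferase genes GPAT3 and GPAT4 and the lipin gene LPIN2 were higher and AGPAT5 was lower. For LPIN1 the difference was 0.38 ± 0.07, 54.1 to 55.7 against 40.4 to 44.4 CPM (edgeR adjusted p = 5.29e-05), for ABHD5 0.29 ± 0.07 (0.000666) and for PLIN3 0.15 ± 0.05 (0.0230). For DGAT2 it was -0.67 ± 0.18, to 0.630 times LA with no overlap (0.00335), for DGAT1 -0.32 ± 0.08 (0.00142), for GPAM -0.32 ± 0.09 (0.00545) and for AGPAT2 -0.30 ± 0.09 (0.00632). The calls for LPIN1, ABHD5 and DGAT1 were kept by every alternative. Leaving out LA replicate 4 ended those for GPAM and AGPAT2, as did CLA18:2 replicate 3 for GPAM and replicate 1 for AGPAT2 (adjusted p up to 0.0636 and 0.0698). Leaving out LA replicate 1 or 2 or CLA18:2 replicate 3 ended that for PLIN3 (0.0630). Without the 8 libraries low in mitochondrial mRNA, 3 of the 7 calls stayed past the test, and those for PLIN3 (adjusted p = 0.0615), GPAM (0.0719), AGPAT2 (0.330) and DGAT2 (0.0713) did not. HILPDA, at -0.24 ± 0.14, was not called (adjusted p = 0.202, interval -0.52 to 0.04), although all its CLA18:2 libraries lay below all LA libraries.

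With RSL3 present, CLA18:2 was higher than LA for ABHD5 (0.23 ± 0.07, edgeR adjusted p = 0.00957) and LPIN1 (0.28 ± 0.07, 0.00282) and lower for HILPDA (-0.40 ± 0.13, 0.0251), beside 14.1% of all genes higher and 12% lower. The LPIN1 call was kept by every alternative. The call for ABHD5 ended without RSL3+CLA18:2 replicate 4 (0.0997), with only those groups fitted (0.0694) and without the libraries low in mitochondrial mRNA (0.0701), and that for HILPDA without replicate 1, 3 or 4 of either group (up to 0.0920), with no filter (0.0896), with only those groups fitted (0.0741) and without the libraries low in mitochondrial mRNA (0.118). Synthesis genes gave smaller differences than without RSL3, -0.08 ± 0.08 for DGAT1, -0.16 ± 0.09 for GPAM, -0.13 ± 0.09 for AGPAT2 and -0.27 ± 0.18 for DGAT2, none called (adjusted p from 0.200 to 0.513). The interaction that tests whether the difference between the acids changed with RSL3 passed for 0 of the 10 genes by edgeR and 0 by DESeq2. Over all genes it passed by edgeR for 2.41% and 1.22%. At an unadjusted edgeR p under 0.05 was 1 of the 10 (DGAT1), beside 2554 of all 16325 genes tested. Calls in one setting and not in the other are therefore not shown to differ.

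**Figure D4:**
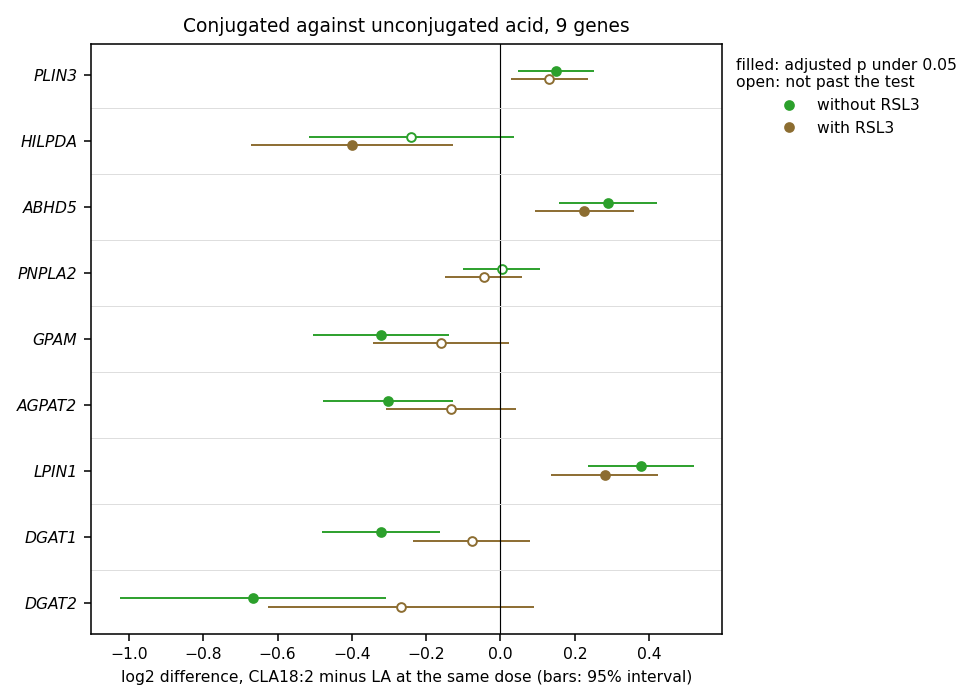
Log2 difference CLA18:2 minus LA, both at 80 µM, for 9 genes without RSL3 (green) and with 10 nM RSL3 (brown), with 95% intervals (4 libraries per group); filled points passed an adjusted p of 0.05. LPIN1 and ABHD5 lie above 0 in both settings, and DGAT2 lies lowest without RSL3 at -0.67.

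CLA18:3 was given at 5 µM and CLA18:2 at 80 µM, so their values stand side by side without a comparison. Against DMSO, ABHD5 was at 0.27 with CLA18:3 and 0.22 with CLA18:2, DGAT1 at -0.27 and -0.30, PNPLA2 at -0.13 and -0.14, and GPAM at -0.43 and 0.05 on the log2 scale. PLIN3 was at 0.11 and 0.28, LPIN1 at 0.12 and 0.22, and HILPDA at -0.03 and -0.41. The summed adipocyte markers were also higher with CLA18:3, at 5.01 to 9.49 CPM against 3.85 to 4.54 with DMSO. Over the 28 libraries that sum is mostly FABP4, at a mean of 4.203 CPM, with PLIN4 next at 0.388. The part of these markers in the results was not tested.

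RSL3 added to an acid changed none of the genes past the test. RSL3+LA against LA gave 0 of 10 by edgeR and 0 by DESeq2, beside 0.0368% of all genes higher and 0.0123% lower by edgeR. At an unadjusted edgeR p under 0.05 were 0 of 10, beside 1158 of all 16325 genes tested. RSL3+CLA18:2 against CLA18:2 gave 0 of 10 by edgeR, beside 6.65% and 5.24%, and DESeq2 called 1, LPIN1 (0.0298). At an unadjusted edgeR p under 0.05 were 4 (PLIN3, ABHD5, LPIN1 and DGAT1), beside 3967 of all 16325 genes tested. There LPIN1 was at -0.20 ± 0.07 (edgeR adjusted p = 0.0538), and its RSL3+CLA18:2 libraries fell into 42.7 and 43.2 CPM against 54.5 and 51.3. The first pair are replicates 1 and 2, with 0.263 and 0.313% mitochondrial mRNA, and the second replicates 3 and 4, with 1.68 and 0.309%. LPIN1 passed the test without replicate 3 or without replicate 4 of RSL3+CLA18:2 (lowest adjusted p = 0.00803). Against RSL3 alone, RSL3+LA raised GPAM and lowered ABHD5 and LPIN1, beside 3.78% and 5.8% of all genes. ABHD5 was at 36.5 to 38.1 against 41.1 to 46.1 CPM, -0.20 ± 0.07 (edgeR adjusted p = 0.0466). That call ended without any 1 of 7 of the 8 libraries (all but RSL3 replicate 1, adjusted p up to 0.183). It also ended with the replicate block (0.0518), RLE scaling (0.0519), no filter (0.186) and only those groups fitted (0.0547). Against RSL3 alone, RSL3+CLA18:2 raised PLIN3 and lowered HILPDA, beside 15.9% and 14.5%. PLIN3 rose by 0.18 ± 0.05 (adjusted p = 0.00629, or 0.0905 without the libraries low in mitochondrial mRNA), at 118 to 132 against 107 to 113 CPM. HILPDA fell by 0.36 on the log2 scale (SE 0.13, adjusted p = 0.0408), a call that ended without RSL3 replicate 1, 2 or 3 or RSL3+CLA18:2 replicate 1, 3 or 4 (up to 0.119), with no filter (0.160), with only those groups fitted (0.0673) and without the libraries low in mitochondrial mRNA (0.135).

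The response to RSL3 was tested for a difference between cells with and without an acid. With LA, 0 of the 10 interactions passed by edgeR and 0 by DESeq2, beside 0% of all genes higher and 0.0245% lower by edgeR. At an unadjusted edgeR p under 0.05 were 0 of the 10, beside 985 of all 16325 genes tested. With CLA18:2, DGAT1 alone passed, at 0.39 ± 0.11 (edgeR adjusted p = 0.0390), beside 1.75% and 1.8%. DGAT1 differed from DMSO by -0.21 with RSL3 alone, and RSL3+CLA18:2 differed from CLA18:2 by 0.18, at 26.2, 27.5, 21.5 and 26.2 CPM against 21.5, 22.4, 22.1 and 23.4. The groups overlap, through replicate 3 of RSL3+CLA18:2. The call ended when any 1 of 12 of its 16 libraries was left out: DMSO replicates 1, 2 and 3, RSL3 replicates 1, 3 and 4, RSL3+CLA18:2 replicates 1, 2 and 4, and CLA18:2 replicates 1, 2 and 3, with adjusted p up to 0.0999. Without the 8 libraries low in mitochondrial mRNA it was at adjusted p = 0.805.

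A list of 38 further genes of droplets, triacylglycerol synthesis and lipolysis was described in the same fit, 23 of which were tested. The other 15, among them the adipocyte perilipin PLIN1, PLIN5, the CIDE genes that fuse droplets, the PNPLA2 inhibitor G0S2, hormone-sensitive lipase LIPE and the MOGAT genes, had too few counts, each with a mean under 0.19 CPM. CLA18:2 raised 10 of the 23 and lowered 3, where 20.1% of all genes rose and 18.6% fell, with a median log2 fold change of 0.23 beside -0.02 over all genes tested. CLA18:3 raised 7 and lowered 3 (all genes: 19.1% and 16.7%), and RSL3+CLA18:2 raised 7 and lowered 3 (18.6% and 16.6%). RSL3+LA raised 6 and lowered 0 (5.43% and 4.81%), and LA raised 2 and lowered 0 (4.91% and 3.41%). RSL3 changed 0 of the 23 by edgeR and 0 by DESeq2, beside 0.178% of all genes that rose and 0.0245% that fell by edgeR. By edgeR, 2 of the 23 (AUP1 and GPAT3) were at an unadjusted p under 0.05, beside 989 of all 16325 genes tested. In the heat map of these genes, GPAT3 and GPAT4 are the ones called under every treatment that held an acid.

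GPAT3 and GPAT4 catalyse the same first step as GPAM, at the endoplasmic reticulum and the droplet, and both rose with every acid. GPAT3 went from 23.7 CPM with DMSO to 36.3 with LA (log2 0.61 ± 0.08, edgeR adjusted p = 1.25e-06), 45.7 with CLA18:2 (0.95 ± 0.08, adjusted p = 7.34e-12), 42.1 with CLA18:3 (0.83 ± 0.08, 3.92e-10), 40.0 with RSL3+LA (0.76 ± 0.08, 1.36e-08) and 52.1 with RSL3+CLA18:2 (1.14 ± 0.08, 1.05e-13). All 4 libraries of each of these groups lay above all DMSO libraries, and every alternative kept the 5 calls. GPAT3 was also higher with CLA18:2 than with LA, by 0.33 ± 0.08 (0.00101), and by 0.38 ± 0.08 with RSL3 present (0.000307). GPAM therefore differed in pattern from GPAT3 with CLA18:3, where GPAM fell and GPAT3 rose. GPAT4 rose by 0.17 ± 0.04 with LA (adjusted p = 0.00241, or 0.0504 with no filter on low counts) and by 0.32 ± 0.04 with CLA18:2 (1.88e-08), and by 0.11 ± 0.04 with CLA18:3 (0.0251), the last a call that ended without DMSO replicate 2 or 3 or CLA18:3 replicate 1 or 2, with no filter, with only those groups fitted and without the libraries low in mitochondrial mRNA (up to 0.426).

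LPIN2, the second lipin, rose with CLA18:2 from 11.9 to 21.5 CPM (0.86 ± 0.11, edgeR adjusted p = 2.61e-08), with RSL3+CLA18:2 to 20.8 CPM (0.81 ± 0.11, 1.18e-07) and with CLA18:3 to 15.6 CPM (0.39 ± 0.11, 0.00395), and was higher with CLA18:2 than with LA by 0.55 ± 0.10 (6.11e-05). Among droplet proteins and assembly factors, CLA18:2 raised 6 of the 10 tested and lowered 0, beside 20.1% and 18.6% of all genes, with a median of 0.32. FAF2, which removes proteins from droplets with the segregase VCP, went from 122 to 172 CPM (0.50 ± 0.05, 9.29e-10), LDAF1, the partner of seipin at new droplets, from 3.26 to 5.00 (0.62 ± 0.19, 0.00972), and HSD17B11 from 14.7 to 19.2 (0.39 ± 0.11, 0.00400). FITM2, AUP1 and the seipin gene BSCL2 completed the 6, at 0.25, 0.16 and 0.70. The LDAF1 call ended without CLA18:2 replicate 4 (0.0543), and the BSCL2 call (adjusted p = 0.0481) ended without DMSO replicate 2 or 4 or any 1 of the CLA18:2 libraries (up to 0.147). Neither FAF2 nor AUP1 is limited to droplets, as both serve protein degradation at the endoplasmic reticulum.

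Among genes of lipolysis, PNPLA3, a lipase-like protein of droplets, fell from 3.22 to 1.63 CPM with CLA18:2 (-0.96 ± 0.27, edgeR adjusted p = 0.00441) and to 1.66 CPM with CLA18:3 (-0.95 ± 0.27, 0.00560). DDHD2, a triacylglycerol hydrolase, fell from 44.7 to 33.8 CPM (-0.40 ± 0.08, 4.42e-05) and to 31.4 CPM (-0.51 ± 0.08, 1.66e-06), and ABHD6, a monoacylglycerol hydrolase, rose from 8.53 to 13.2 CPM with CLA18:2 (0.63 ± 0.14, 0.000323). All 5 of these calls were kept by every alternative, and none of the treated libraries overlapped DMSO. MGLL, which hydrolyses monoacylglycerol, rose with CLA18:3 from 12.8 to 17.7 CPM (0.47 ± 0.12, 0.00206). With RSL3+CLA18:2 the falls of PNPLA3 (-1.09 ± 0.27, 0.00169) and DDHD2 (-0.30 ± 0.08, 0.00193) ended without the 8 libraries low in mitochondrial mRNA, at adjusted p of 0.109 and 0.332. RSL3 added to LA changed 0 of the 23 genes by edgeR, beside 0.0368% of all genes higher and 0.0123% lower. Added to CLA18:2 it also changed 0 of the 23, beside 6.65% and 5.24%. In the AGPAT family, which acts at the AGPAT2 step, AGPAT5 fell with CLA18:2 (-0.19, adjusted p = 0.0159), AGPAT3 fell with CLA18:3 (-0.16, 0.0131) and RSL3+CLA18:2 (-0.14, 0.0249), and AGPAT4 rose with RSL3+LA (0.40, 0.0270). None of these 4 calls held under every alternative. That of AGPAT5 ended without CLA18:2 replicate 2 or 4 (up to 0.105), those of AGPAT3 without CLA18:3 replicate 4 (0.0602) and without DMSO replicate 2 or 3 or RSL3+CLA18:2 replicate 3 (up to 0.123), and that of AGPAT4 without DMSO replicate 1, 2 or 3 or RSL3+LA replicate 1 or 3 (up to 0.128). RAB18, a small GTPase found on droplets, was higher with CLA18:2 than with LA (0.28, adjusted p = 8.98e-05).

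Several of these genes also passed the test with other treatments. AUP1 rose by 0.34 with CLA18:3 (edgeR adjusted p = 7.74e-08), 0.20 with RSL3+LA (0.000977) and 0.28 with RSL3+CLA18:2 (2.38e-06), and every alternative kept these calls. FAF2 (0.50, adjusted p = 1.63e-09), GPAT4 (0.26, 1.18e-06), ABHD6 (0.50, 0.00386) and HSD17B11 (0.40, 0.00363) rose with RSL3+CLA18:2, the last not without the libraries low in mitochondrial mRNA (0.229). With RSL3+LA, GPAT4 rose by 0.18 (adjusted p = 0.00161), LPIN2 by 0.36 (0.0235) and ABHD6 by 0.47 (0.0206). The LPIN2 call ended without DMSO replicate 1 or 2 or RSL3+LA replicate 1 (up to 0.134), and the ABHD6 call without DMSO replicate 2 or 4 or RSL3+LA replicate 1 or 2 (up to 0.0881). With CLA18:3, LDAF1 rose by 0.53 (adjusted p = 0.0299) and ABHD6 by 0.35 (0.0451), and 7 and 9 of 14 alternatives ended these calls: for LDAF1 those without DMSO replicate 1, 2 or 3 or CLA18:3 replicate 3 or 4 among them (up to 0.156), and for ABHD6 those without DMSO replicate 2, 3 or 4 or CLA18:3 replicate 2 or 4 (up to 0.134).

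**Figure D5:**
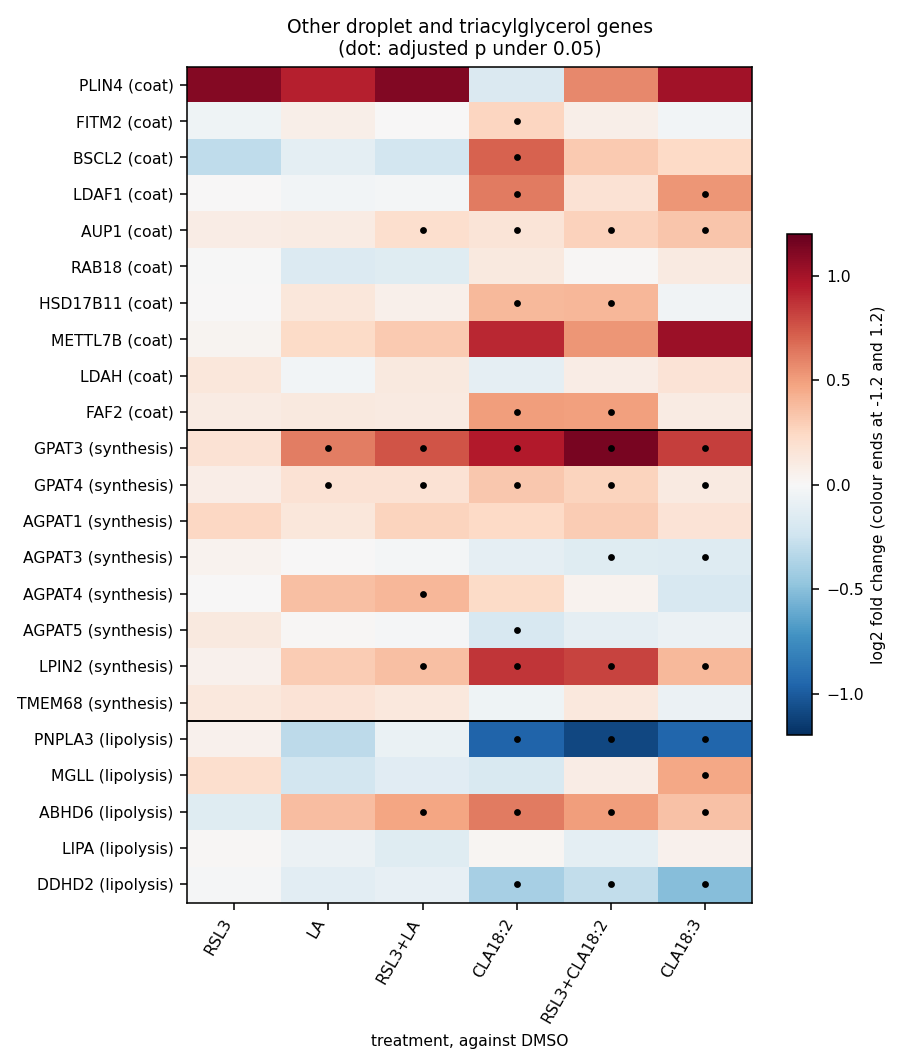
Log2 fold change against DMSO of the 23 tested genes of the wider list (rows, grouped as droplet coat and assembly, synthesis, and lipolysis) for 6 treatments (columns, 4 libraries each); black dots mark an adjusted p under 0.05. GPAT3 and GPAT4 carry a dot under every treatment but RSL3, and GPAT3 reaches 1.14 with RSL3+CLA18:2.

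Genes whose log2 CPM most resembled the 3 widest-ranging members over the 28 libraries were found by Pearson's r among genes at 2 CPM or more, as a description. PLIN2 was most like CCNG2 (0.81), VGLL4 (0.81) and KLHL24 (0.80), all of which were highest with CLA18:2 among DMSO, LA, CLA18:2 and CLA18:3. PLIN2 had 0 to 20 counts per library, so its r and its wide range rest on values near the floor. GPAM was most like MAP3K4 (0.91), WNT7B (0.89) and NR3C1 (0.87), each highest with LA and lowest with CLA18:3 among those 4 groups. DGAT2 was most like SOX4 (0.72), PXMP4 (0.72) and TLCD1 (0.69). Among the members, LPIN1 and ABHD5 were closest (0.79), and ABHD5 and GPAM furthest apart (-0.65). The libraries share treatments, and depth and composition enter all genes at once. Genes picked by r with a member follow its order of groups because of how they were picked.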

How the data were processed

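Gene-level read counts of 28 libraries (7 groups of 4) were used as the authors deposited them. Per the labels' protocols, RNA was taken with a column kit and sequenced as paired ends. HISAT, SAMtools, featureCounts and DESeq2 with build hg38 are named in the submitters' processing notes. Versions, annotation and strand setting are not given in the sources used here. Doses follow the design text, which gives µM for the fatty acids where the sample labels write mM.

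Of 60286 genes, 16325 passed edgeR's filterByExpr (minimum count 10), holding 99.91% of counts. Libraries held 16226270 to 24286824 counts, so a gene at a few counts, such as PLIN2, has wide counting error. One edgeR 4.0.16 quasi-likelihood model (R 4.3.3, limma 3.58.1, TMM scaling, group means, all 28 libraries) gave 12 comparisons and 3 interactions, with Benjamini-Hochberg adjustment over all genes tested and a threshold of 0.05. SE is the log2 fold change divided by the root of F, intervals are 95%, and CPM is the count per 1000000 of TMM-scaled library size (of the library total for marker lists). The model was tested on simulated data. Alternatives were DESeq2 1.42.0, RLE scaling, no filter, only the compared groups, a replicate block, leaving out each library, and, chosen after seeing the data, leaving out 8 libraries with under 0.6% mitochondrial mRNA, which leaves 1 RSL3+CLA18:2 library that is assumed to vary like the others. Replicate pairs differed beyond sampling noise (lowest chi-square per degree of freedom 2.36 over 42 pairs).

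The 10 members, the wider list of 38 genes and the marker lists were chosen with earlier results of these data known. All members are named, listed genes are named where they passed a test, and the 3 genes most like each of the 3 members of widest range are those of highest r among genes at a mean of 2 CPM or more. Figures used Python 3.11.15 and matplotlib 3.10.9.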

Additional observations from a re-analysis of the deposited data

Results flagged for a closer look

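In 70 sets of 4 libraries (10 genes in 7 groups), the highest or lowest library was compared with the rest by Dixon's ratio, where chance marks about 1 in 20. PLIN2 in DMSO replicate 1 stood apart at 0.0526 CPM, which is 1 count against 0 in the other 3 libraries. GPAM in DMSO replicate 4 stood apart at 32.1 CPM, against 30.4 to 30.7 CPM in the other 3, a small gap beside a narrow range. The response of DGAT1 to RSL3 differed between cells with and without CLA18:2, by an interaction of 0.39 on the log2 scale (edgeR adjusted p = 0.0390), and that call ended when any 1 of 12 of its 16 libraries was left out.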

How the results depend on the processing

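Counts here are over all 10 genes, PLIN2 included, although it entered the fit only through groups in which it was high. Of 150 member results, 35 passed the test and 15 did so under every alternative tried. Leaving out at least 1 library ended 17 of the 35. The 35 include PLIN2 with CLA18:2 and with RSL3+CLA18:2 against DMSO. They also include PLIN2 for CLA18:2 against LA and RSL3+CLA18:2 against RSL3. PLIN2 with CLA18:2 against DMSO is also among the 15 kept by every alternative. PLIN2 for CLA18:2 against LA and for RSL3+CLA18:2 against RSL3 are among the 17. These PLIN2 calls are not read as results. PLIN2 reversed without the 8 libraries low in mitochondrial mRNA, to -1.57 for RSL3+CLA18:2 against DMSO and -3.58 against RSL3, where 1 RSL3+CLA18:2 library with no PLIN2 count is left. Without those libraries the members past the test went from 1 to 2 for LA against DMSO and from 8 to 4 for CLA18:2 against LA. PLIN2 is among both the 8 and the 4. Calls over all 16325 genes tested went from 1358 to 1297 and from 4929 to 3784. Comparisons and interactions with RSL3+CLA18:2 keep 1 library of that group there, so their counts of members are not given. For RSL3+CLA18:2 against CLA18:2, PLIN2 was at -7.21 on the log2 scale there, from 1 library with no PLIN2 count. Fewer samples enter that fit, and no other cause was tested. With only the compared groups fitted, LA against DMSO gave 3 and RSL3+CLA18:2 against RSL3+LA gave 1, beside 2340 and 3281 of all 16325 genes tested. RSL3+CLA18:2 against CLA18:2 gave 1 with RLE scaling, 1 with no filter and 1 with DESeq2, which gave 1 member no adjusted p. Over all genes those settings called 1955, 1825 (of 35424 without the filter) and 2246. The interaction of RSL3 and CLA18:2 gave 0 with no filter, beside 590 of 35424 genes. The cause of these changes was not tested.

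With 1 library left out at a time, the members past the test, PLIN2 included, ranged from 1 to 2 for LA, 5 to 8 for CLA18:2, 3 to 4 for CLA18:3, 1 to 2 for RSL3+LA and 2 to 4 for RSL3+CLA18:2 against DMSO. Calls over all 16325 genes tested ranged, in that order, from 1014 to 1151, 5715 to 5969, 5153 to 5711, 1297 to 1545 and 5004 to 5482. Members past the test ranged from 5 to 7 for CLA18:2 against LA, 2 to 3 for RSL3+CLA18:2 against RSL3+LA, 0 to 2 for RSL3+CLA18:2 against CLA18:2, 2 to 3 for RSL3+LA and 1 to 3 for RSL3+CLA18:2 against RSL3, and 0 to 1 for the interaction of RSL3 and CLA18:2. Over all genes tested these were, in order, 4354 to 4577, 3581 to 4047, 1483 to 1825, 1062 to 1509, 4359 to 4766 and 395 to 672. The members past the test stayed at 0 for RSL3 against DMSO, RSL3+LA against LA and the other 2 interactions. There, calls over all genes tested were 23 to 32, 4 to 9, 3 to 5 (with LA) and 364 to 614 (between the acids).

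Replicate numbers did not pair the samples: of 84 correlations of same-numbered deviations, 5 were over 0.1 (median 0.00553, range -0.159 to 0.178), and in 0 of 21 pairs of groups were all over 0.1. With the replicate number as a block, the members past the test, PLIN2 included, were 0 for RSL3, 1 for LA, 8 for CLA18:2, 4 for CLA18:3, 2 for RSL3+LA and 3 for RSL3+CLA18:2 against DMSO, 8 for CLA18:2 against LA, 3 for RSL3+CLA18:2 against RSL3+LA, 0 for each acid with against without RSL3, 2 each for RSL3+LA and RSL3+CLA18:2 against RSL3, and 0, 1 and 0 for the interactions of RSL3 with LA, with CLA18:2 and with the difference between the acids. Over all 16325 genes tested, the block fit called 33, 1350, 6341, 5839, 1695 and 5780 against DMSO, in the same order. It called 4921 for CLA18:2 against LA and 4281 for RSL3+CLA18:2 against RSL3+LA. For LA and CLA18:2 with against without RSL3 it called 7 and 1935. For RSL3+LA and RSL3+CLA18:2 against RSL3 it called 1592 and 4983, and for the interactions 4, 580 and 592.

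Over all genes, calls moved by more than 1.5 times for RSL3 against DMSO (33, or 112 with no filter and 66 with DESeq2), RSL3+LA against LA (8, or 164 with no filter, 20 with those groups alone and 37 with DESeq2), the interaction of RSL3 and LA (4, or 132 with no filter, 2 without the libraries low in mitochondrial mRNA and 37 with DESeq2), and LA against DMSO (1358, or 2340 with those groups alone). Without the libraries low in mitochondrial mRNA, RSL3+CLA18:2 against CLA18:2 went from 1942 to 937, its interaction from 580 (889 with DESeq2) to 225, and that of the acids from 593 to 239. Leaving out RSL3+LA replicate 1 or CLA18:2 replicate 2 took the last to 364 or 373, and leaving out RSL3+LA replicate 1, 2 or 3 or LA replicate 3 or 4 took RSL3+LA against LA to 4 or 5. At this depth PLIN2 cannot be measured to better than a few counts per library.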
